A study of Homo sapiens with 24 samples.

Results

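Transcripts of the enzymes that handle glutathione, peroxides and protein thiols were examined in neurons differentiated from LUHMES cells, an established human line from the embryonic midbrain that gives rise to neurons of dopaminergic type. Members were the genes of the count table whose names begin with GST, GPX, PRDX, GLRX or TXN followed by further letters or digits, together with GSR, GSS, CAT, SOD1, SOD2 and SOD3. TXNIP, TXNRD1 and names ending in P and digits were left out, and at least 50 reads over all libraries were required. This gave 45 members of 58051 genes: 10 glutathione S-transferases (GST), 6 glutathione peroxidases (GPX), 6 peroxiredoxins (PRDX), 3 glutaredoxins (GLRX), 14 thioredoxin-like genes and reductases (TXN), 3 superoxide dismutases (SOD), and CAT, GSR and GSS. Read to the letter, the rule leaves out TXN and GLRX themselves, whose names have nothing after the stem, and GSTP1, so these 3 were counted among the partners of the family. The member nearest the read minimum was SOD3 with 66 reads, and the highest name under it was GSTA8P with 22. Of 66 names that fitted, 21 lay under the minimum, 10 of them at 0 reads.

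All cultures were of the same line and were differentiated with tetracycline, cAMP and GDNF. They received 1% DMSO, the vehicle, or a toxicant in it for 6 h, in 8 groups of 3 libraries. At 5 µM were MS275 (entinostat, which blocks class I histone deacetylases), the herbicide paraquat, and MPP (the toxic metabolite of MPTP). Ziram, a dithiocarbamate fungicide, was at 2 µM. Rotenone, a pesticide that blocks complex I of the respiratory chain, was at 1 µM, as was 6-HD, a toxic analogue of dopamine. Methyl mercury was at 0.5 µM. MPP, paraquat and MS275 thus shared a dose and were compared directly, rotenone and 6-HD shared another and were not, and the remaining doses differ. The labels call the libraries biological samples in triplicate, and p-values measure differences against the spread between such samples.

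Glutathione is a small thiol that cells make in a pair of steps, the last of which is run by GSS. Glutathione peroxidases and transferases spend it on peroxides and on reactive electrophiles, and GSR returns the oxidised form to the reduced one with NADPH. Peroxiredoxins reduce peroxides through their own cysteines and are recharged by thioredoxins, which thioredoxin reductases recharge in turn. Dopaminergic neurons meet peroxides from the oxidation of dopamine as well as from mitochondria, which is why these enzymes are often read in models of Parkinson disease.

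Promoter letters are shown first because several factors that act on these genes are known by their sites. RefSeq promoters on GRCh38.p14, from 250 bases before to 50 bases after the start, were matched for 37 of the 45 members. Both strands were searched for TGACNNNGC, the core of the antioxidant response element bound by NRF2, for the E box CACGTG, and for the endoplasmic reticulum stress element. The antioxidant core was found in 5 of 37 members (13.5%) and in 13.35% of all 35116 promoters. The E box was found in 6 of 37 members (16.2%) and in 7.26% of all promoters. A member was counted where any of its promoters held the motif, whereas the shares of all promoters count each promoter singly. A gene with several promoters has more chances to match, so these percentages are not directly comparable. The stress element was in 0 of 37 members and in 0.0769% of promoters, and no member held more than 1 kind of motif. All stretches with the antioxidant core are shown, and the E box stretches of the 2 members with an E box that changed in an exposure. Each is read on the strand of the gene, 5′ to 3′, with the motif in capitals and 10 bases on each side. The coordinates are those of the stretch.
GPX2 (chr14:64942849-64942877, minus strand): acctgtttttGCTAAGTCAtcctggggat
GSTA4 (chr6:52995275-52995303, minus strand): ccgggaccgcTGACCTGGCgctttgtgcg
GSTO1, distal (chr10:104254656-104254684, plus strand): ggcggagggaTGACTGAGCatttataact
GSTO1, proximal (chr10:104254721-104254749, plus strand): cgagatgcttTGACACAGCcccttaagat
TXNDC5 (chr6:7910151-7910179, minus strand): cactggcggcTGACGTGGCgctcggcggc
TXNL1 (chr18:56638583-56638611, minus strand): ctccctggcgTGACTCGGCactgagagtc
GSTO2, E box (chr10:104269140-104269165, plus strand): cgggtaggatCACGTGcgaggggcag
TXNDC12, E box (chr1:52056256-52056281, minus strand): ggagcagatcCACGTGatacagccga
A match describes letters in this window only. In GPX2 the core reads on the opposite strand to the gene. Of the 16 members that changed with MS275, 11 had a promoter in the table, of which TXNL1 held the antioxidant core and GSTO2 and TXNDC12 held the E box.

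Library totals ran from 9.69 to 46.9 megareads, and members held 0.369 to 0.468% of the reads of a library. In DMSO, all 7 neuronal markers and 5 of 7 dopaminergic markers were at 1 or more counts per megaread (CPM), with LMX1B at 0.033 CPM. Of the astrocyte markers 2 of 5 were at 1 CPM or more and GFAP was at 0.02 CPM, of the oligodendrocyte lineage markers 4 of 5 were (MOG was at 0), of the microglial markers 0 of 5, and of the markers of cycling cells 5 of 5. MS275 replicate 3, MPP replicate 3 and rotenone replicate 1 stood apart from the other libraries of their groups: the chi-square per degree of freedom over genes was 21.3 and 22.5 against 6.06 for the remaining MS275 pair, 20.8 and 16 against 6.60 for the MPP pair, and 24.5 and 27.6 against 5.36 for the rotenone pair. Among the other groups this measure ran from 4.19 to 11.1, except for 20 between methyl mercury replicates 2 and 3. Results are therefore also given without these libraries. The measurements are of bulk RNA, in which fewer cells of a type and less RNA per cell cannot be told apart.

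Among the members, peroxiredoxin transcripts were the most abundant in the vehicle-treated neurons. Levels between genes are compared as CPM per kilobase of exon. PRDX5, a peroxiredoxin of mitochondria and peroxisomes, led with 447 ± 12.5 CPM per kb (SD, n = 3). It was followed by the mainly cytosolic PRDX1 at 344 ± 2.8 and PRDX2 at 230 ± 19.5, whose libraries did not overlap with each other. GPX4, which reduces lipid hydroperoxides within membranes, was at 153 ± 10.6 CPM per kb and the cytosolic GPX1 at 147 ± 3.63, which differed by less than the SD of GPX4. GSTA4, a transferase for hydroxynonenal, a product of lipid oxidation, was at 102 ± 1.71 and SOD1, the cytosolic superoxide dismutase, at 93.7 ± 2.45. In all, 6 members were at 100 CPM per kb or more, 17 between 10 and 100, 15 between 1 and 10, and 7 under 1. The 7 lowest were TXNRD3, GSTM2, TXNDC5, GPX2, GSTO2, TXNDC2 and SOD3. TXNDC5 shares 60.6% of its exon length with BLOC1S5-TXNDC5 on its own strand, so its level is uncertain. The peroxiredoxins made up 59.1% ± 0.313 (SD, n = 3) of the members' summed CPM per kb, the glutathione peroxidases 15.8% ± 0.356, the thioredoxin-like genes 8.08% ± 0.242 and the transferases 7.52% ± 0.181. SOD2, the mitochondrial superoxide dismutase, stood at 138 ± 3.92 CPM but at only 8.36 ± 0.238 CPM per kb, since its annotated exons span 16.5 kb. The partners outside the rule were also abundant, with GSTP1 at 421 ± 33.8 and TXN, the main cytosolic thioredoxin, at 127 ± 3.74 CPM per kb. The family shares above leave out both, and GSTP1, a transferase, stood above PRDX1. The shares therefore hold only for the members as the rule defines them.

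**Figure D1:**
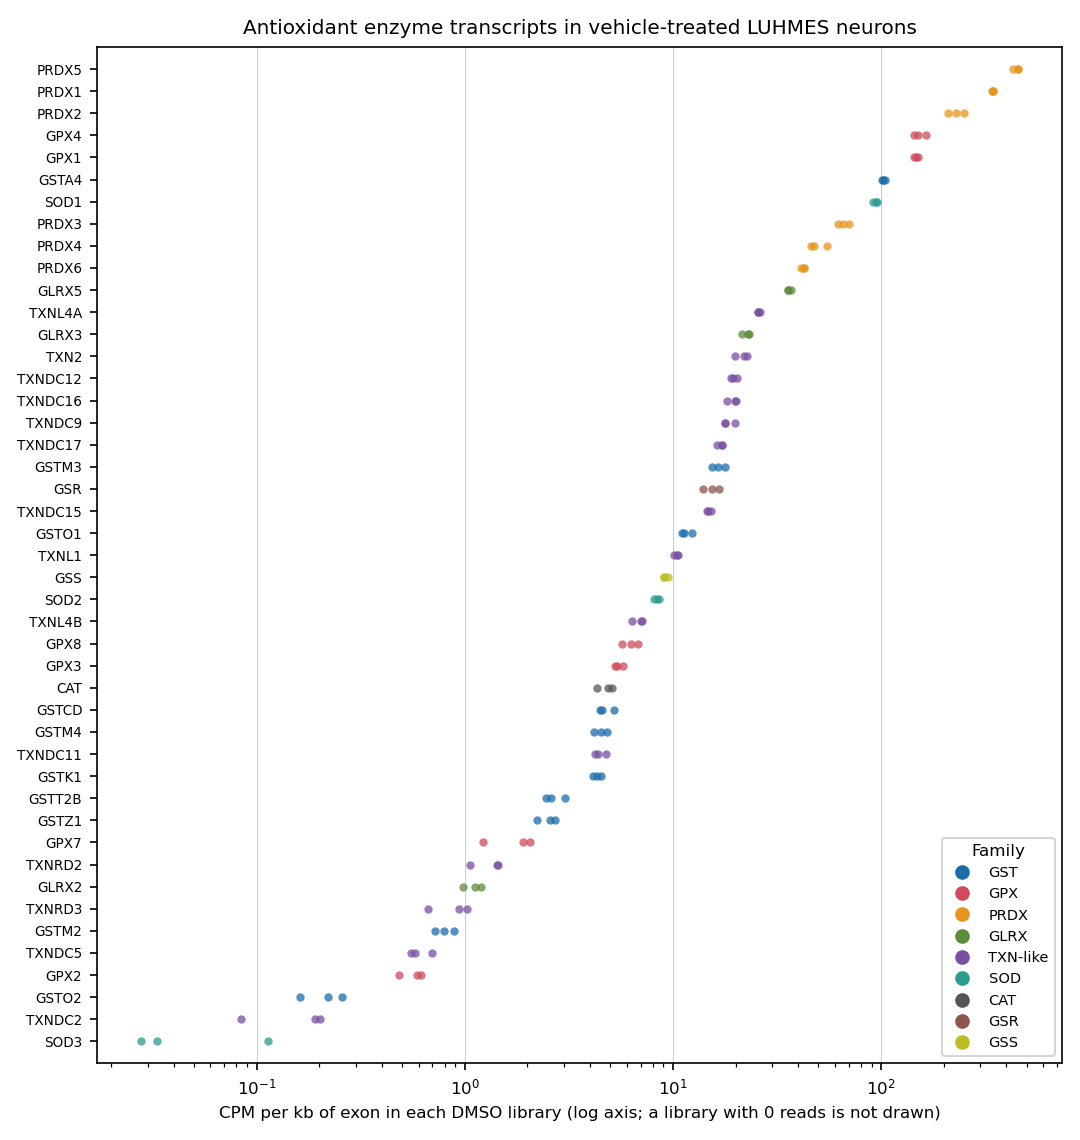
Level of the 45 members in each of the 3 DMSO libraries, in CPM per kb of exon on a log axis, coloured by family. PRDX5, PRDX1 and PRDX2 are at the top with 447, 344 and 230 CPM per kb on average, and SOD3 is at the bottom.

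These levels moved little over the 8 groups. For the 35 members at 10 CPM or more in DMSO, the highest group mean was at the median 1.33 times the lowest, and for 26 of them it was under 1.5 times. GPX4, for example, ranged from a mean of 262 CPM in methyl mercury to 323 in paraquat, and SOD1 from 179 in MS275 to 210.2 in methyl mercury. Of the 44 members tested, 24 changed in 0 of the 7 comparisons with DMSO, 18 in 1 and 2 in 2. Neither these counts nor the ratios above were taken over all genes, so they show no trait particular to the members. A member is said to have changed where edgeR's quasi-likelihood test gave an adjusted p under 0.05, the adjustment being that of Benjamini and Hochberg across all 18852 genes tested. SOD3, the extracellular dismutase, had too few reads to be tested. Its reads were 1, 6 and 2 in DMSO, 5, 34 and 6 in MS275, and 0 to 3 in every other library.

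**Figure D2:**
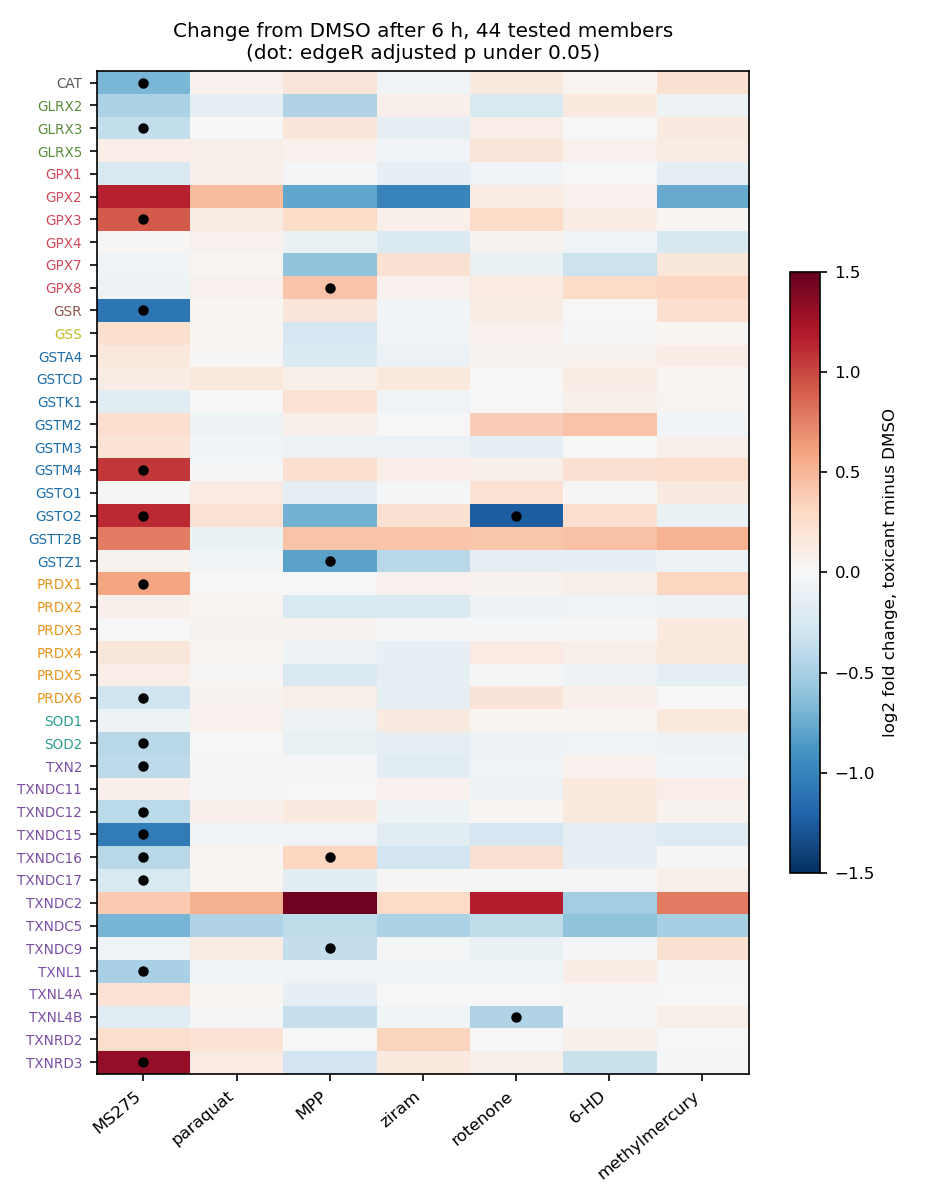
Log2 fold change of the 44 tested members (rows) in each toxicant against DMSO (columns), with dots for an adjusted p under 0.05 in edgeR. MS275 has 16 dots, MPP 4 and rotenone 2, and the remaining 4 columns have none.

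MS275 changed the largest number of members. Of 44 tested, 5 rose and 11 fell, 36.4% against 43.2% of all genes (11.4% against 20.1% for higher, 25% against 23% for lower). The members' median log2 fold change was 0.02 and that of all genes 0.04. The groups did not overlap for any of the 16. Overlap was not counted over all genes, here or in the comparisons below. Members that pass the test are likely to show no overlap, so this adds no support to the calls. The falls included GSR, CAT and SOD2 and 6 of 14 thioredoxin-like genes, and the rises included PRDX1, GPX3 and 2 transferases. Without MS275 replicate 3, 19 members were called, 15 of them among the 16. TXNDC17 was then lost, and GSS, PRDX4, TXNL4A and TXNRD2 were gained, all higher in MS275. Both the number called and the split depended on the scaling. With RLE size factors 21 members were called, 11 higher and 10 lower, beside 42.6% of all genes. With DESeq2 10 members were called higher and 10 lower. The members' share therefore did not stay below that of all genes. The calls over all genes turned the same way, from 3798 higher and 4338 lower to 4253 and 3783 with RLE size factors and 4296 and 3818 with DESeq2.

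GSR, glutathione reductase (chromosome 8, 30678061 to 30727999, minus strand, GRCh38), was at 62.5, 57.9 and 52.7 CPM in the DMSO libraries and at 25.5, 27.3 and 29 CPM in MS275. Every MS275 library lay well under every DMSO library. The log2 fold change was -1.08 ± 0.11 (SE; edgeR adjusted p = 2.2e-09), and -1.13 without MS275 replicate 3. In the other 6 toxicants the libraries of GSR ranged from 51.7 to 74.7 CPM. GSS, which makes glutathione, was at 58.5, 55.8 and 55.8 CPM in DMSO and 67.9, 76.7 and 55.7 CPM in MS275. Replicate 3 of MS275 overlapped with DMSO, and the log2 fold change of 0.24 did not pass (adjusted p = 0.0576).

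Among the transferases, GSTM4, of the mu class that conjugates electrophiles (chromosome 1, 109656081 to 109674836), was at 27.7, 24 and 25.9 CPM in DMSO and 55.4, 59.2 and 46.2 CPM in MS275. This was a log2 fold change of 1.06 ± 0.12 (SE; edgeR adjusted p = 5.16e-08), and 1.14 without MS275 replicate 3. Its neighbour GSTM2 shares exons with GSTM4 and GSTM1, 6.13% of its exon length in the larger overlap, and did not pass. GSTO2, of the omega class that reduces dehydroascorbate (chromosome 10, 104268873 to 104304945), was low throughout, with 2.56, 2.18 and 1.60 CPM in DMSO and 4.32, 4.42 and 4.86 CPM in MS275. Its log2 fold change was 1.12 ± 0.31 (SE; adjusted p = 0.00382). GSTA4, the most abundant transferase of the rule, was at 222, 219 and 226 CPM in DMSO and 248, 266 and 228 CPM in MS275, and did not pass. In all, 8 of the 10 transferases did not pass, GSTM2 and GSTA4 among them, and the family's median log2 fold change was 0.18.

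Of the glutathione peroxidases, GPX3, the secreted form known from plasma (chromosome 5, 151020438 to 151028993), was at 16.7, 17.1 and 18.1 CPM in DMSO and 33.3, 37.4 and 27.2 CPM in MS275. All MS275 libraries were higher, with a log2 fold change of 0.92 ± 0.13 (SE; edgeR adjusted p = 1.64e-06). GPX4, the most abundant of the family by CPM, was at 333, 304 and 291 CPM in DMSO and 339, 330 and 273 CPM in MS275. These libraries overlapped, and the 95% interval of its log2 difference ran from -0.21 to 0.26.

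Of the peroxiredoxins, PRDX1 (chromosome 1, 45511036 to 45523047) was at 519, 527 and 526 CPM in DMSO and 851, 879 and 649 CPM in MS275. Replicate 3 was the lowest of the MS275 libraries and still above DMSO. The log2 fold change was 0.60 ± 0.09 (SE; edgeR adjusted p = 1.23e-06), and 0.72 without that library. PRDX6, which uses a single cysteine and reduces oxidised phospholipids, fell by 0.30 on the log2 scale. PRDX2, PRDX3, PRDX4 and PRDX5 did not pass, and the 95% intervals of PRDX2 (-0.12 to 0.27) and PRDX5 (-0.13 to 0.33) both included 0. The peroxiredoxin share of the members' summed CPM per kb was 64% ± 1.17 (SD, n = 3) in MS275, against 59.1% ± 0.313 in DMSO and group means of 57.8% to 60% in the other 6 toxicants. PRDX1 shares 24.9% of its exon length with MMACHC on the opposite strand, and PRDX and GPX genes have processed copies elsewhere in the genome.

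Of the thioredoxin-like genes, TXNDC15, a transmembrane protein needed for primary cilia (chromosome 5, 134873803 to 134901525), was at 77.4, 80.3 and 76.5 CPM in DMSO and 38.1, 36.9 and 38 CPM in MS275. The groups were far apart beside their spread. The log2 fold change was -1.05 ± 0.09 (SE; edgeR adjusted p = 6.58e-11). TXNL1, a thioredoxin bound to the proteasome, was at 119, 114 and 120 CPM in DMSO and 80, 83 and 88.8 CPM in MS275, a log2 fold change of -0.49 ± 0.09. TXNDC16, a luminal protein of the endoplasmic reticulum, was at 86.4, 94.1 and 94.8 CPM in DMSO and 64.2, 66.9 and 76.5 CPM in MS275, a log2 fold change of -0.41 ± 0.10 (adjusted p = 0.00138). TXNDC12, of the endoplasmic reticulum, TXN2, the mitochondrial thioredoxin, and TXNDC17 fell by 0.40, 0.39 and 0.23. TXNDC12 shares exons with KTI12 and another neighbour on its own strand, 36.1% of its exon length in the larger overlap. In the opposite direction TXNRD3, a reductase with a glutaredoxin domain (chromosome 3, 126571779 to 126655155), was at 3.56, 3.92 and 2.54 CPM in DMSO and 8.80, 8.02 and 7.95 CPM in MS275. This was the largest rise among the members that passed, at 1.32 ± 0.23 (SE; adjusted p = 3e-05). TXNL4A, a spliceosomal protein and the most abundant of the group by CPM, was at 134, 134 and 137 CPM in DMSO and 167, 160 and 141 CPM in MS275 (adjusted p = 0.052).

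Among the glutaredoxins, GLRX3, which carries iron-sulphur clusters, was at 119.8, 111 and 118 CPM in DMSO and 94.4, 91.4 and 85.1 CPM in MS275, a log2 fold change of -0.37 ± 0.08. GLRX2 and GLRX5, both mitochondrial, did not pass. CAT, the catalase of peroxisomes (chromosome 11, 34438925 to 34472062), was at 15.5, 18.4 and 17.6 CPM in DMSO and 10.6, 10.3 and 11.3 CPM in MS275, a log2 fold change of -0.68 ± 0.15 (SE; edgeR adjusted p = 0.000452). SOD2 (chromosome 6, 159669057 to 159745186) was at 138, 142 and 134 CPM in DMSO and 95.7, 106 and 108 CPM in MS275, a log2 fold change of -0.42 ± 0.09 (adjusted p = 0.000367). SOD1 was at 184, 190.2 and 193 CPM in DMSO and 182, 185 and 169 CPM in MS275, and did not pass.

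**Figure D3:**
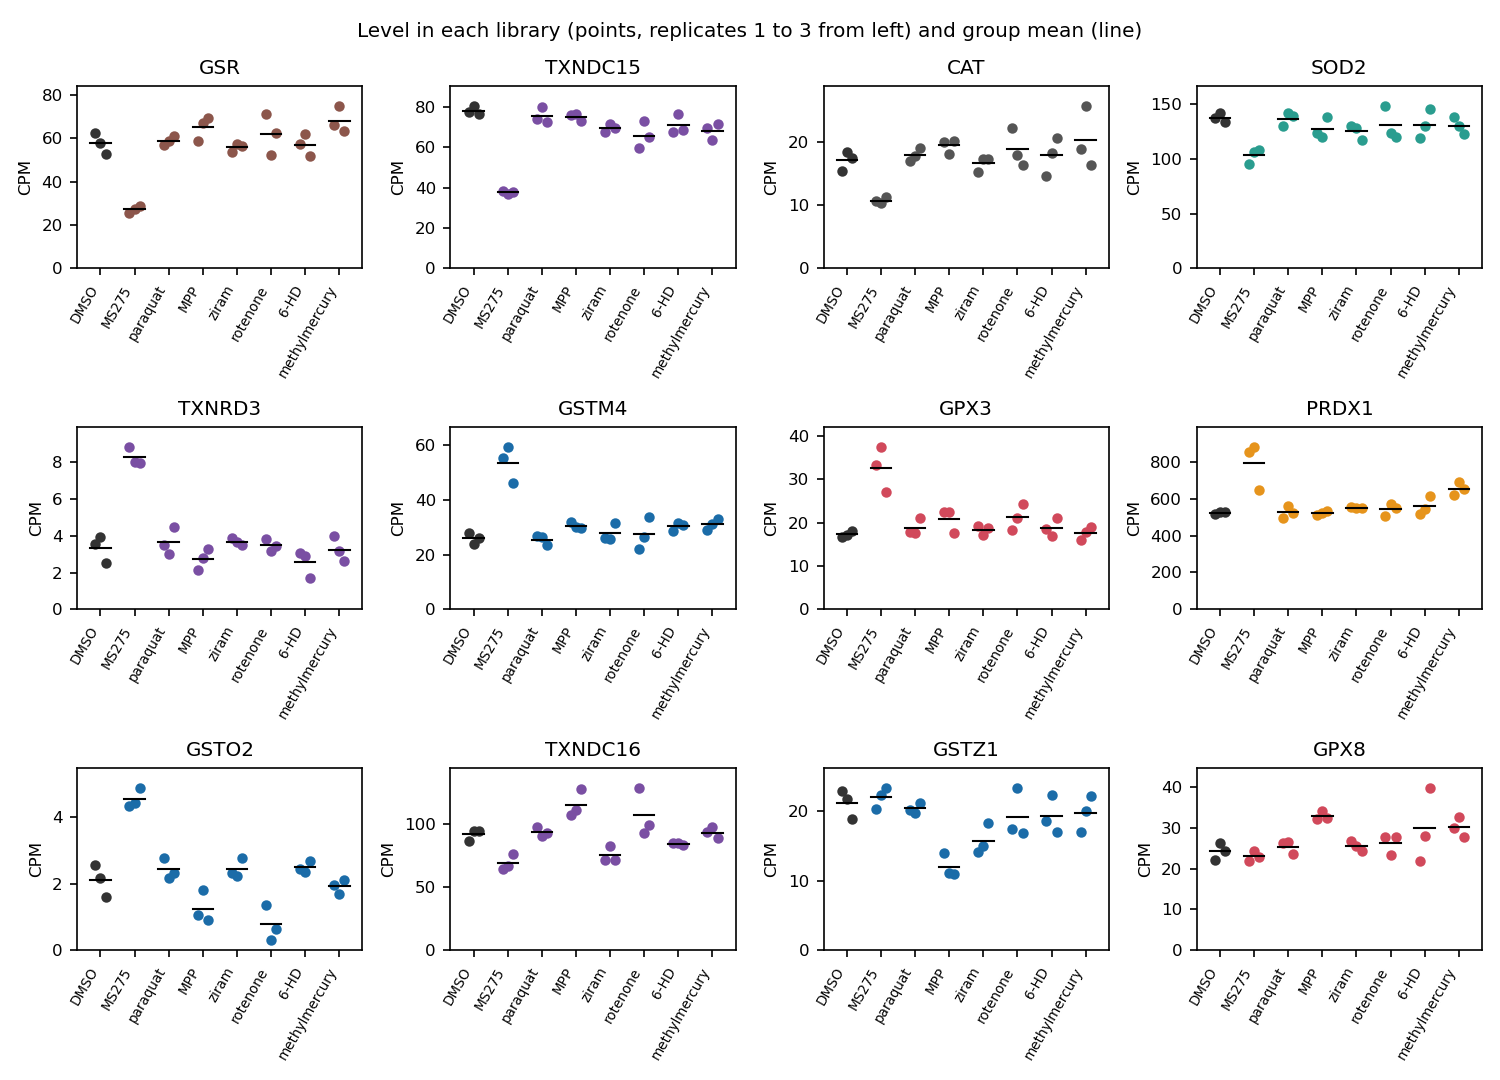
CPM in each of the 24 libraries (points) and group means (lines) for 12 named members. GSR, TXNDC15, CAT and SOD2 are lowest in MS275, TXNRD3, GSTM4, GPX3, PRDX1 and GSTO2 are highest there, and GSTZ1 is lowest in MPP.

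Some sums of cell type markers moved with MS275. The summed level of the 5 astrocyte markers was 5.65 to 6.59 CPM in DMSO and 10.4 to 14.4 CPM in MS275. That of the 7 dopaminergic markers was 638 to 759 CPM in DMSO and 1031 to 1243 CPM in MS275, and that of the 5 oligodendrocyte lineage markers 130 to 143 and 149 to 173 CPM. The microglial sum was 0.646 to 1.03 CPM in DMSO and 1.87 to 2.60 CPM in MS275. These 4 sums did not overlap between the groups, whereas that of the 5 cycling markers did, at 242 to 278 and 239 to 297 CPM. In DMSO the dopaminergic sum was mostly SLC6A3 (mean 636 CPM), the oligodendrocyte lineage sum mostly OLIG2 (114 CPM) and the astrocyte sum mostly SLC1A3 (4.16 CPM). A sum can therefore follow a single gene. The part of these marker sums in the results was not tested.

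In the pathway around the members, MS275 raised and lowered similar numbers of genes, except among those that supply NADPH. Over all genes 20.1% were higher with MS275 and 23% lower, and no list was tested against these shares. Of the genes that make, import and break down glutathione, 6 of 25 tested rose and 6 fell. They included the surface peptidases GGT1 (log2 fold change 2.04), ANPEP (1.92) and GGT5 (1.28), and the aminopeptidase LAP3 (-0.90). GGT1 and ANPEP were low, with 9, 9 and 13 and 18, 23 and 41 reads in the DMSO libraries. All 6 rises but only 2 of the 6 falls passed under each of the 12 alternatives, since ADH5 and GCLC were each lost under 9, GGCT under 5 and CTH under 3. Of the partners outside the rule, 6 of 20 rose and 4 fell. The largest changes were those of SRXN1, which repairs overoxidised peroxiredoxins (2.04), the microsomal transferase MGST1 (1.32), and the sestrins SESN2 (-0.98) and SESN3 (0.83). SRXN1 was also low, with 9, 32 and 21 reads in the DMSO libraries. Of the NADPH genes, 1 of 15 rose and 8 fell, led by the mitochondrial NAD kinase NADK2 (-1.24), with MTHFD1 (-0.57), ME2 (-0.46) and MTHFD2 (-0.39). The 1 rise, that of NADK, was lost under 7 of 12 alternatives. With the replicate block, NADK (edgeR adjusted p = 0.0547) and GCLC (0.0537) did not pass. Of the genes for selenoprotein synthesis, 1 of 9 rose, SEPSECS (0.33), and 2 fell, TRNAU1AP (-0.89) and SEPHS1 (-0.21). SEPHS1 was lost under 7 of 12 alternatives and SEPSECS under 4. Of the disulfide isomerases and oxidases, 4 of 15 rose and 4 fell. ERO1A fell by 1.14, and PDIA4 (0.93), PDIA5 (0.62) and QSOX2 (0.60) rose, of which PDIA5 was lost under 2 of 12 alternatives. The medians of these 5 lists were 0.06, 0.23, -0.31, 0.13 and -0.15, beside 0.04 for all genes.

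MPP, which enters dopaminergic neurons through the dopamine transporter and inhibits complex I, changed 4 of 44 members, 9.09% against 10.8% of all genes. GPX8 and TXNDC16 rose (4.55% against 5.77% for higher), and GSTZ1 and TXNDC9 fell (4.55% against 5.02% for lower). The members' median log2 fold change was -0.05 and that of all genes was 0.0017. GSTZ1, an isomerase of tyrosine breakdown (chromosome 14, 77320884 to 77331597), was at 22.9, 21.7 and 18.9 CPM in DMSO and 14, 11.2 and 10.9 CPM in MPP. All 3 MPP libraries were lower, with a log2 fold change of -0.80 ± 0.14 (SE; edgeR adjusted p = 0.000299), and -0.74 without MPP replicate 3. It was the 1 member of the 4 that passed under each of the 12 alternatives.

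TXNDC9, a regulator of the chaperonin that folds actin and tubulin, was at 50.2, 50 and 55.8 CPM in DMSO and 39.1, 40.4 and 42.8 CPM in MPP (log2 fold change -0.35 ± 0.12; edgeR adjusted p = 0.0461). GPX8, a membrane peroxidase of the endoplasmic reticulum, was at 22.1, 26.3 and 24.4 CPM in DMSO and 32, 34 and 32.4 CPM in MPP (0.43 ± 0.14; adjusted p = 0.0356). TXNDC16 was at 107, 111 and 127 CPM in MPP (0.33 ± 0.10; adjusted p = 0.0318), the opposite direction to MS275. The groups did not overlap for these 3, yet none of these 3 calls held without DMSO replicate 1, 2 or 3 or MPP replicate 2 or 3, and only TXNDC16 passed without MPP replicate 1. Without MPP replicate 3 the edgeR adjusted p was 0.0678 for TXNDC9, 0.0731 for GPX8 and 0.187 for TXNDC16. With scaling by library totals alone, 0 members were higher and 6 lower. Over all genes that scaling called 592 higher and 1564 lower, instead of 1088 and 946. Under it GPX8 (edgeR adjusted p = 0.11) and TXNDC16 (0.149) did not pass, and GSS, GSTA4, PRDX2 and TXNL4B were called lower. The summed astrocyte markers were 9.39 to 12.9 CPM in MPP. Their part in these changes was not tested.

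Around the members, MPP raised the glutathione genes SLC7A11, the cystine importer (log2 fold change 2.12), CHAC1, which breaks glutathione down (1.63), and SLC3A2, the partner chain of that importer (0.34). It lowered 3 of 25, MAT2A (-0.51) among them. Over all genes 5.77% were higher in MPP and 5.02% lower, and no list was tested against these shares. Of the NADPH genes 1 of 15 rose and 4 fell, ALDH1L2 (-0.62), IDH1 (-0.56), ME2 (-0.42) and IDH2 (-0.40). Of the partners 2 of 20 rose, SESN2 (0.49) and SESN3 (0.40), and 3 fell, led by TXNIP, the inhibitor of thioredoxin (-1.73), with PTGES2 (-0.37). Of the selenoprotein synthesis genes 1 of 9 rose and 3 fell, SEPSECS by 0.39 and TRNAU1AP by 0.34 among them. Of the isomerases and oxidases 1 of 15 rose, QSOX2 (0.37), and 4 fell, PDIA4 (-0.64), TMX3 (-0.53) and TMX2 (-0.38) among them. With 1 library left out, SLC7A11, CHAC1, TXNIP, IDH1, ME2, PDIA4 and TMX3 stayed called, whereas SESN2, SESN3, PTGES2, MAT2A, SLC3A2, ALDH1L2, IDH2, SEPSECS, QSOX2 and TMX2 were each lost at least once and TRNAU1AP each time. Of the 25 list genes called in MPP, 8 passed under each of the 12 alternatives.

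Rotenone changed 2 of 44 members, 4.55% against 5.52% of all genes, and both fell (2.76% of all genes were higher and 2.76% lower). TXNL4B, a spliceosomal protein, was at 20.2, 22.4 and 22.3 CPM in DMSO and 17.1, 13.4 and 16.8 CPM in rotenone (log2 fold change -0.45 ± 0.12; edgeR adjusted p = 0.0271). GSTO2 was at 1.38, 0.315 and 0.656 CPM in rotenone, which is 34, 3 and 8 reads (-1.23 ± 0.36; adjusted p = 0.0377). For both genes every rotenone library lay under every DMSO library. Without rotenone replicate 1 the log2 fold changes were -0.51 for TXNL4B and -2.03 for GSTO2, and GSTT2B was also called higher, at 0.96. Neither gene passed without rotenone replicate 2 (adjusted p = 0.115 for TXNL4B and 0.126 for GSTO2) or DMSO replicate 2 (0.111 and 0.117). TXNL4B was also lost without DMSO replicate 3 (0.102), and GSTO2 without DMSO replicate 1 (0.128) or rotenone replicate 3 (0.115). TXNL4B shares exons with DHX38 and another opposite-strand gene, 10.8% of its exon length in the larger overlap. The next smallest p-values were those of TXNDC15 (65.8 against 78.1 CPM; adjusted p = 0.081) and PRDX6 (113 against 99.4 CPM; 0.129), neither of which passed. The summed dopaminergic markers were 879 to 1226 CPM in rotenone and their part was not tested. In the lists, TXNIP (-0.91), MAT2A (-0.73), IDH1 (-0.54), ALDH1L2 (-1.01) and SCLY (-1.22) fell, and SESN3 (0.43) and QSOX2 (0.42) rose. Without rotenone replicate 1, SCLY (edgeR adjusted p = 0.174) and SESN3 (0.107) did not pass. Over the 12 alternatives SCLY was lost under 5, QSOX2 under 5, SESN3 under 4 and MAT2A under 1. These 7 genes were chosen after their values were seen.

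Ziram and methyl mercury changed 0 of 44 members in edgeR, beside 0.53% (0.408% higher, 0.122% lower) and 0.286% (0.223% higher, 0.0637% lower) of all genes. In ziram 4 members had an unadjusted p under 0.05, and DESeq2 called 0. The smallest p-values were those of GSTZ1, at 14.1, 15 and 18.3 CPM (log2 fold change -0.42; adjusted p = 0.327), and TXNDC16, at 71.3, 82.8 and 71.4 CPM (-0.29; adjusted p = 0.376). With the ziram and DMSO groups fitted alone both were called (adjusted p = 0.0344 and 0.0199). Of the glutathione genes 3 of 25 rose and 0 fell in ziram. SLC7A11 was at 2.28, 4.60 and 4.02 CPM in DMSO and 52.1, 34.5 and 29.2 CPM in ziram (3.36 ± 0.25; edgeR adjusted p = 1.05e-10), and CHAC1 (1.10) and SLC3A2 (0.62) rose with it. Of the NADPH genes 3 of 15 rose and 0 fell, ME1 (1.48), ALDH1L2 (0.63) and MTHFD2 (0.40), of which ALDH1L2 did not pass under 6 of 12 alternatives. The summed astrocyte markers were 6.62 to 8.10 CPM in ziram, above those of DMSO, and their part was not tested.

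In methyl mercury 6 members had an unadjusted p under 0.05. PRDX1 was at 619.9, 692 and 653 CPM, above the 519 to 527 of DMSO in all 3 libraries, with a log2 fold change of 0.32 ± 0.08 (edgeR adjusted p = 0.103). It was called by DESeq2 (adjusted p = 0.0153), with the 2 groups alone (0.0463) and with no filter on low counts (0.0256). GSR was at 66.1, 74.7 and 63.6 CPM (0.24; adjusted p = 0.355), also above all DMSO libraries. Of the partners, TXNRD1, the cytosolic thioredoxin reductase that the rule leaves out, was at 280, 304 and 291 CPM in DMSO and 457, 452 and 424 CPM in methyl mercury (0.61 ± 0.07; adjusted p = 5.77e-06). GCLM, a subunit of the enzyme for the first step of glutathione synthesis, was at 10.5, 13.2 and 16 CPM in DMSO and 25.9, 33 and 24.1 CPM in methyl mercury (1.04 ± 0.18; adjusted p = 0.00778). The GCLM call was lost without methyl mercury replicate 2 (0.104), DMSO replicate 1 (0.0748) or DMSO replicate 2 (0.0753). These 2 were the only list genes that edgeR called in methyl mercury and were chosen after their values were seen. In methyl mercury 3 marker sums lay clear of DMSO: the cycling markers at 292 to 433 against 242 to 278 CPM, the oligodendrocyte lineage markers at 104 to 119.9 against 130 to 143 CPM, and the astrocyte markers at 7.49 to 10.8 against 5.65 to 6.59 CPM. Their part in these results was not tested.

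Paraquat and 6-HD changed 0 of 44 members in edgeR and in DESeq2, beside 0% of all genes in paraquat and 0.0106% in 6-HD (0.0106% higher, 0% lower), and 0 members had an unadjusted p under 0.05 in either. In paraquat the smallest p-values were those of GSTCD (33.5, 33.7 and 33.1 CPM against 28.7, 32.9 and 28.1 in DMSO) and TXNRD2, the mitochondrial thioredoxin reductase (11.6, 14.8 and 11.6 against 8.89, 12 and 12.1). The 95% intervals of the log2 difference were -0.17 to 0.18 for PRDX1 and -0.18 to 0.25 for GSR. In 6-HD the smallest p-values were those of GPX8 (21.9, 28.1 and 39.7 CPM) and GSTM2 (9.40, 6.36 and 14.5 CPM), and in both the highest library was replicate 3. The summed cycling markers were at 281 to 324 CPM in 6-HD against 242 to 278 in DMSO. The microglial sum was 1.35 to 5.46 CPM against 0.646 to 1.03. Their part was not tested.

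MPP and paraquat are both pyridinium compounds, in which MPP carries a phenyl ring where paraquat has another methylated pyridinium ring, and they were given at the same dose for the same time. Tested directly, 3 of 44 members differed, 6.82% against 11% of all genes (6.04% higher in MPP, 4.94% lower). GSTZ1, at 20.2, 19.8 and 21.2 CPM in paraquat, was lower in MPP (log2 difference -0.76 ± 0.14; edgeR adjusted p = 0.000627), and TXNDC9, at 54.2, 59.3 and 54.5 CPM in paraquat, was also lower (-0.46 ± 0.12; adjusted p = 0.00838). TXNDC16 was higher (0.30 ± 0.10; adjusted p = 0.0498) but passed under 2 of 12 alternatives. The call of TXNDC9 was lost only without paraquat replicate 2 (0.0523). With scaling by library totals, 0 members were higher in MPP and 10 lower. Over all genes that scaling called 579 higher and 1608 lower, instead of 1139 and 931. For PRDX1 the 95% interval of the difference was -0.18 to 0.16, and for GSR -0.07 to 0.35.

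MPP and MS275, of unlike structure, were also given at 5 µM. In this comparison 12 of 44 members were higher in MPP and 15 lower, 61.4% against 50.8% of all genes (27.3% against 25.9% for higher, 34.1% against 24.9% for lower). With scaling by library totals, 3859 genes were higher in MPP and 5552 lower, instead of 4884 and 4687. The members' median log2 difference was -0.10 and that of all genes was -0.06. The members that were higher in MPP were led by GSR (65.1 against 27.3 CPM; 1.26 ± 0.11; edgeR adjusted p = 8.05e-11), TXNDC15 (0.99), CAT (0.86), TXNDC16 (0.74), GLRX3 (0.55) and TXNDC12 (0.54). Those lower in MPP, at 2 CPM or more, were led by GSTO2 (-1.83), TXNRD3 (-1.60), GSTZ1 (-0.86), GSTM4 (-0.81), GPX3 (-0.64) and PRDX1 (-0.60). By family, 4 of 6 peroxiredoxins were lower in MPP and 1 higher, 5 of 10 transferases were lower and 1 higher, and 5 of 14 thioredoxin-like genes were higher and 3 lower. All of these 12 leading members passed without MS275 replicate 3 and without MPP replicate 3, and 26 of the 27 calls were shared in each case. PRDX5 was the 1 member called of the 27 whose libraries overlapped between the groups. Overlap was again not counted over all genes.

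**Figure D4:**
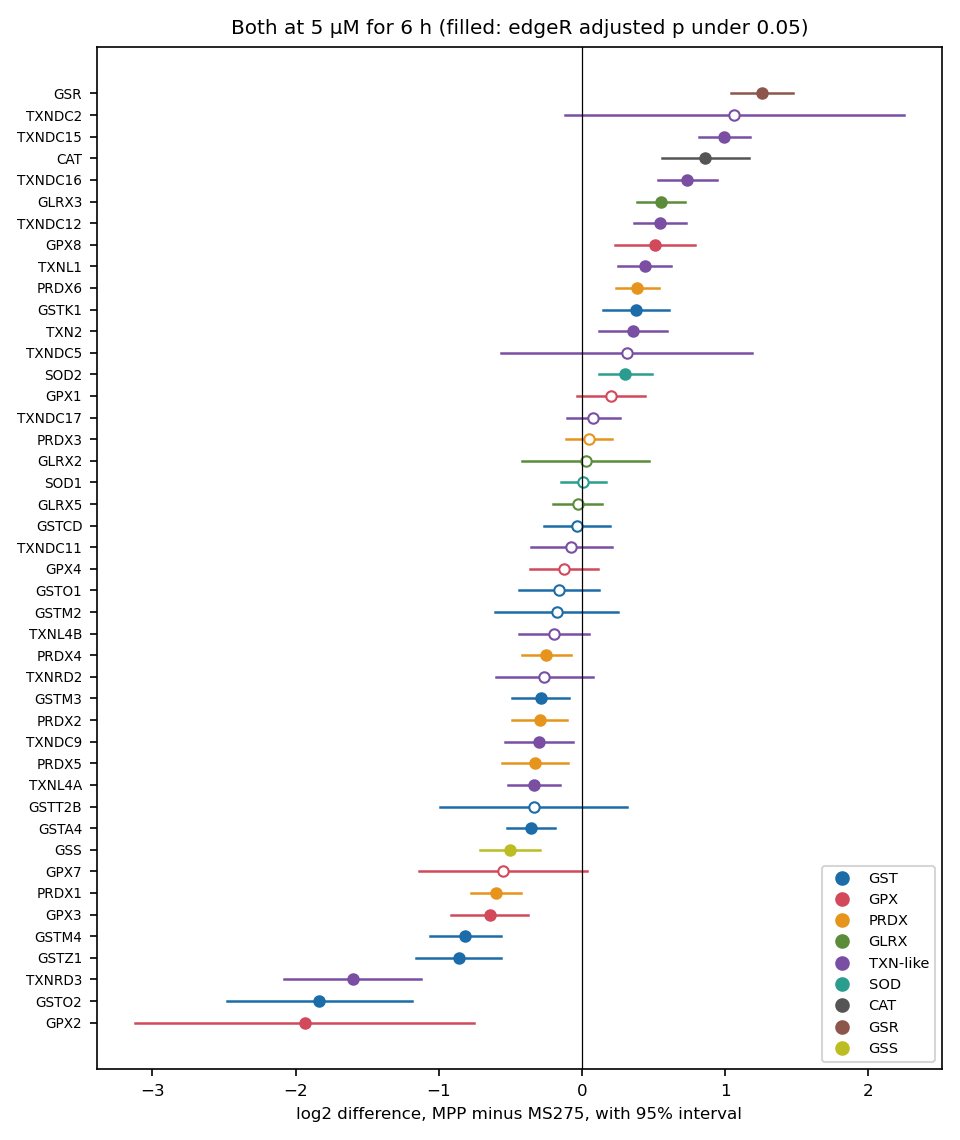
Log2 difference, MPP minus MS275, for the 44 tested members with 95% intervals from edgeR, filled where the adjusted p was under 0.05. GSR, at 1.26, is the highest of the members called, and GPX2, with 0.499 and 1.89 CPM in the groups, is the lowest and has a wide interval.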

How the data were processed

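RNA was selected for polyadenylated transcripts and depleted of ribosomal RNA before sequencing, per the labels' protocols. The authors deposited whole-number counts per gene, and the submitters' processing notes name STAR, HTSeq, DESeq and the build GRCh38. For the versions, strand setting, annotation and multi-mapping reads, the entry is: not given in the sources used here. Genes with overlaps or near copies are therefore uncertain. The normalized table was not used. Counts from 24 libraries (9.69 to 46.9 megareads) were fitted with edgeR 4.0.16 (R 4.3.3): TMM scaling, default expression filter (18852 genes), 1 coefficient per group, 16 residual degrees of freedom, and the quasi-likelihood test with Benjamini-Hochberg adjustment at 0.05 in 9 comparisons. CPM are counts per megaread of the TMM-scaled total. Coordinates and exon lengths are from GENCODE 29. The alternatives were other scalings, no filter, 2 groups alone, a replicate block, DESeq2 1.42.0 and each library left out. The procedure was tested on simulated data.

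The members and lists were chosen with earlier results of these data known. Named were, per comparison, up to 6 members that rose and 6 that fell by fold change at 2 CPM or more, the highest of each family in DMSO, the 2 smallest p-values where fewer than 3 members were called, and up to 4 genes of a list with at least 3 calls. The list genes had no limit on CPM. The sequence flanks to print were chosen after the motif matches were seen. For MS275 against DMSO, libraries with the same replicate number deviated together (correlations 0.154, 0.168 and 0.207 over genes, each over 0.1). In that comparison unlike numbers reached at most -0.0016, and all 3 MS275 libraries correlated best with the DMSO library of their own number. In rotenone against DMSO, however, unlike numbers reached 0.233. These values do not settle whether the numbers pair the samples over the whole series. In MPP against MS275 the same-number values were 0.401, 0.056 and 0.495. The main fit had no replicate block.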

Additional observations from a re-analysis of the deposited data

How the results depend on the processing

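The replicate block changed 1 call in MS275 against DMSO, where 15 members were called instead of 16 and TXNDC17 had an adjusted p of 0.0508. In the other 8 comparisons the same-number correlations were not all over 0.1, so pairing was not assumed. There the block gave 3 calls for MPP, 2 for rotenone, 2 for MPP against paraquat, 27 for MPP against MS275 and 0 elsewhere. Of the 16 members called in MS275, 14 passed under each of the 12 alternatives. TXN2 was lost without DMSO replicate 2 (0.0526) or MS275 replicate 2 (0.051), and TXNDC17 under 10 of 12. With RLE size factors 21 members were called, 11 higher and 10 lower instead of 5 and 11, and with DESeq2 10 higher and 10 lower. The calls over all genes, 3798 up and 4338 down as reported, became 4253 and 3783 under RLE scaling, and 4296 and 3818 in DESeq2.

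Counts of members called moved by over 1.5 times as follows. For MPP, 10 were called with 2 groups alone, and 1 to 2 with a library left out. For rotenone, 0 were called with no filter and 0 with 2 groups alone, 4 with DESeq2, and 0 to 3 with a library left out. For ziram, 2 were called with 2 groups alone. For methyl mercury, 1 was called with no filter, 1 with 2 groups alone and 1 with DESeq2. For MPP against paraquat, 10 were called with library totals only, 10 with 2 groups alone and 8 with DESeq2, and 1 to 3 with a library left out. For MS275 they ran from 14 to 19 and for MPP against MS275 from 22 to 27 with a library left out. The cause was not tested.

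With library totals only, MPP against DMSO called 592 genes higher and 1564 lower instead of 1088 and 946, and the members called were 0 higher and 6 lower. The same scaling called 579 genes higher and 1608 lower in MPP against paraquat instead of 1139 and 931. In MPP against MS275 it moved the median of all genes by -0.11, and 21 members lay above that median and 23 below it under both scalings. Among the members and list genes with an unadjusted p under 0.05, 1 value changed sign: SLC25A40 in rotenone, not called, at 0.35, and from -0.0097 (without rotenone replicate 1) to 0.507 (without rotenone replicate 3) with a library left out; it was singled out after its values were seen. Counts over all genes moved by over 1.5 times with 2 groups alone (MPP 3983 instead of 2034, ziram 586 instead of 100, rotenone 211 instead of 1041, 6-HD 1 instead of 2, MPP against paraquat 3541 instead of 2070), with no filter (paraquat 3 instead of 0, ziram 160, 6-HD 18, methyl mercury 249 instead of 54), with DESeq2 (ziram 181, 6-HD 12, methyl mercury 341) and with the replicate block (6-HD 0). With a library left out they ran from 1142 to 1430 for MPP, 40 to 74 for ziram, 483 to 1616 for rotenone, 0 to 2 for 6-HD, 7 to 170 for methyl mercury and 1157 to 1476 for MPP against paraquat. Of the list genes called, 32 of 42 in MS275, 8 of 25 in MPP, 3 of 7 in rotenone, 5 of 6 in ziram and 1 of 2 in methyl mercury passed under each of the 12 alternatives. GSTO2, with 3 to 34 reads in the rotenone libraries, is limited by depth.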
